A study of Homo sapiens with 8 samples.

Results

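The 10 genes of the Hippo pathway's nuclear arm described here were followed in lung cancer cells that had become resistant to an inhibitor of fibroblast growth factor receptors (FGFR). They are the co-activators YAP1 and WWTR1 (the gene for TAZ), the DNA-binding factors TEAD1, TEAD2 and TEAD4, and the common target genes CCN1, CCN2, ANKRD1, AMOTL2 and LATS2. These 10 genes were chosen by name from the 37441 rows of the count table, with earlier results of these data known. Each name matched a single Ensembl identifier.

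The 8 RNA-seq libraries came from the non-small cell lung cancer lines NCI-H1581 and NCI-H1703, both sensitive to the FGFR inhibitor CPL304110, and from the resistant variants NCI-H1581R and NCI-H1703R, with 2 replicates of each of the 4 variants. The resistant variants were selected in CPL304110 from 50 nM upwards, to 2.5 µM for NCI-H1581R and to 5 µM for NCI-H1703R, and the sensitive lines were not selected. A single resistant variant was made from each line, and whether clones were picked is not given in the sources used here. Cells were harvested 24 h after fresh medium was added, and the sources do not state whether this medium held the inhibitor. NCI-H1581 cells were kept in DMEM/F12 and NCI-H1703 cells in RPMI 1640, both with serum, so line and medium cannot be told apart.

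In the Hippo pathway, the kinases STK3 and STK4 activate LATS1 and LATS2, which phosphorylate YAP and TAZ and so keep them in the cytoplasm. When the kinases are inactive, YAP and TAZ enter the nucleus, where they bind DNA through TEAD factors and switch on genes of growth, adhesion and the extracellular matrix. LATS2 and AMOTL2 are both targets and inhibitors of YAP and TAZ, so that the pathway holds feedback loops. YAP activity depends on phosphorylation and location, which RNA levels do not measure.

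Library totals ranged from 33800389 to 40031710 counts, and the tests covered 18203 genes, those whose counts summed to 10 or more. Each of the 10 genes was among them, although ANKRD1 passed only through NCI-H1703, which held 26 of its counts, so its calls are not counted below. Epithelial markers (EPCAM, CDH1, KRT8, KRT18 and KRT19) summed to only 19.0 to 21.4 CPM in NCI-H1581, 14.3 to 14.5 in NCI-H1581R, 72.5 to 75.4 in NCI-H1703 and 6.64 to 8.73 in NCI-H1703R. KRT18 led the NCI-H1703 sum, at 64.3 and 65.4 CPM. EPCAM went the other way, at 15.9 and 13.1 CPM in NCI-H1581 and 0.703 and 0.209 CPM in NCI-H1703. CPM here are counts scaled to library size, with TMM factors set over all 8 libraries. Fibroblast markers, led by COL3A1 in NCI-H1581 and NCI-H1581R and by COL1A1 in NCI-H1703R, summed to 4157 to 4457 CPM in NCI-H1581, 2038 to 2517 in NCI-H1581R, 4.18 to 5.03 in NCI-H1703 and 24.6 to 29.9 in NCI-H1703R. Leukocyte markers, led by CD68, summed to 77.7 to 92.6 CPM in NCI-H1581, 17.0 to 19.2 in NCI-H1581R, 20.2 to 24.6 in NCI-H1703 and 46.3 to 54.5 in NCI-H1703R. Squamous markers summed to 6.25 to 7.29 CPM in NCI-H1581, 26.9 to 35.7 in NCI-H1581R and at most 1.42 in the NCI-H1703 variants. TP63 made up most of the sums in NCI-H1581 (6.26 and 5.79 CPM) and NCI-H1581R (27.8 and 31.2 CPM). KRT5, KRT14, KRT6A and DSG3 were each at most 1.17 CPM in these libraries. Neuroendocrine markers summed to 142 to 146 CPM in NCI-H1581, 152 to 173 in NCI-H1581R, 8.64 to 11.7 in NCI-H1703 and 16.5 to 19.2 in NCI-H1703R, with INSM1 at 0 counts throughout. The defining endothelial genes CDH5, CLDN5 and KDR and the leukocyte gene CD3E had at most 3 counts in every library. The epithelial, squamous, neuroendocrine, fibroblast and leukocyte sums moved with the variants, and their part in the results below was not tested. The libraries came from cultured cell lines, so these sums describe marker RNA in the cultures and do not show that fibroblasts or leukocytes were present. Whether fewer cells carried a marker RNA or each cell carried less cannot be told apart.

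Promoter sequences show which of these genes carry the letters that TEAD factors bind. RefSeq windows on GRCh38.p14 matched 7 of the 10 genes, and TEAD1, TEAD4 and CCN1 had none. The 250 bases before the start site were searched on both strands for GGAATG, the core of the TEAD motif, which occurred in 11.9% of 35116 such windows. The windows of CCN2 and ANKRD1 are shown in full, as the classical targets with the most matches, and capitals mark GGAATG. The CCN2 window (chr6:131951373-131951622, minus strand) held 3 matches, which start 169, 104 and 95 bases before the start site, and 3 or more were found in 0.0826% of all windows. The ANKRD1 window (chr10:90921088-90921337, minus strand) held 2, at 220 and 128 bases before the start, and 2 or more were found in 0.94%.
CCN2: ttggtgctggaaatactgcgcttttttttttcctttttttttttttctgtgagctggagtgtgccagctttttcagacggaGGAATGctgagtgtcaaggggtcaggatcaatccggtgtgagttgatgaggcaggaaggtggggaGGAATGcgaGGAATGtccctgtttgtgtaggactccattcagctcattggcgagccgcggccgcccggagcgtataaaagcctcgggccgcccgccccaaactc
ANKRD1: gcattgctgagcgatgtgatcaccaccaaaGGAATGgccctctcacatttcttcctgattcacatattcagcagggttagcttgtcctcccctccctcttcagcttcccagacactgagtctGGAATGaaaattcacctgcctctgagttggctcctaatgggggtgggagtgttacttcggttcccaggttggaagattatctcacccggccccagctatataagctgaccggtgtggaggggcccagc

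YAP1 held a single match at 162 bases before its start, and AMOTL2 held 1 match, written as CATTCC on the other strand, at 69 bases before the start in 1 of its 2 windows. The only match of LATS2 lay after the start, at base 10 of the transcript. These sites are shown with their flanks to allow comparison with the CCN2 and ANKRD1 windows, again with the match in capitals.
YAP1: cgggagtgtgcaGGAATGtagcaacttgca
AMOTL2: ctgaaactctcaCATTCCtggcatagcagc
LATS2: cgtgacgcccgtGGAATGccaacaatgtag
Neither of the 2 windows of WWTR1, nor either of the 2 of TEAD2, held these letters. The AP-1 motif TGANTCA, found in 6.57% of windows, occurred once, in ANKRD1, 195 bases before the start. It was written TGATTCA there and overlapped neither GGAATG match. The CArG box of serum response factor, in 1.16% of all windows, was in none of them. These matches describe letters in a window and say nothing about binding in these cells.

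YAP1 (ENSG00000137693, chromosome 11, 102110447 to 102233424, plus strand) rose with resistance in NCI-H1581. It measured 168 and 176 CPM in the NCI-H1581 replicates and 309 and 323 CPM in NCI-H1581R, so that the ranges did not overlap. The log2 fold change was 0.89 ± 0.17 (SE, n = 2 against 2, adjusted p = 0.0196, edgeR). In the other line YAP1 stood at 206 and 226 CPM in NCI-H1703 and at 164 and 192 CPM in NCI-H1703R. This difference of -0.25 ± 0.11 on the log2 scale did not pass the threshold of an adjusted p under 0.1 (adjusted p = 0.256, edgeR). It passed with the replicate number as a block (adjusted p = 0.00329), where 35.5% of all genes passed, against 14.4% without the block. Whether equal replicate numbers shared a run is not settled, so the block is an alternative here and below. NCI-H1581R had the highest YAP1 level of the 4 variants, followed by NCI-H1703, while the ranges of NCI-H1703R and NCI-H1581 overlapped.

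WWTR1 (ENSG00000018408, chromosome 3, 149517235 to 149736714, minus strand), the gene for the YAP paralogue TAZ, separated the lines far more than the variants. It measured 14.2 and 12.7 CPM in NCI-H1581 and 15.2 and 12.8 CPM in NCI-H1581R, ranges that overlapped (log2 fold change 0.07 ± 0.22, SE). In NCI-H1703 it measured 383 and 399 CPM, and in NCI-H1703R 521 and 588 CPM. The rise in NCI-H1703R was 0.53 ± 0.11 on the log2 scale (SE, adjusted p = 0.0352, edgeR).

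Levels of different genes were compared per kilobase of merged exons. YAP1 RNA per kb was 15.7 and 18.3 times that of WWTR1 in the NCI-H1581 replicates and 26.9 and 33.5 times in NCI-H1581R. In NCI-H1703 the ratio was 0.710 and 0.752, and in NCI-H1703R 0.417 and 0.433, so that WWTR1 was the more abundant of the pair in that line. This ratio moved away from 1 in both resistant variants, upwards through YAP1 in NCI-H1581R and downwards mainly through WWTR1 in NCI-H1703R. The summed YAP1 and WWTR1 level was 28.3 and 29.4 CPM per kb in NCI-H1581, 50.8 and 52.6 in NCI-H1581R, 78.5 and 83.6 in NCI-H1703 and 88.4 and 101 in NCI-H1703R. The plot of per-length levels shows these sums by library.

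**Figure D1:**
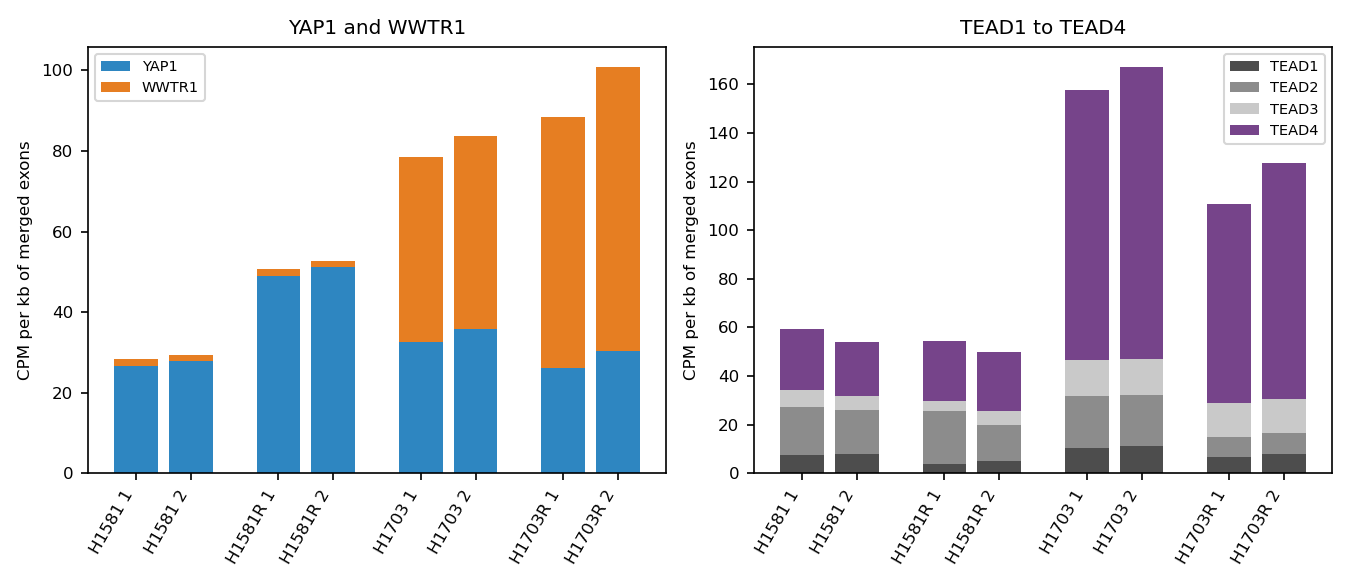
Levels per kilobase of merged exons (CPM per kb, linear axes) in each of the 8 libraries, stacked for YAP1 and WWTR1 (left) and for TEAD1 to TEAD4 (right), with the replicate number after the variant. YAP1 makes up nearly the whole YAP1 and WWTR1 bar in the 4 libraries of the NCI-H1581 line, and TEAD4 makes up 70.5% to 76.2% of the TEAD bar in the 4 libraries of the NCI-H1703 line.

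TEAD1 (ENSG00000187079, chromosome 11, 12674421 to 12944737, plus strand) fell with resistance in both lines. It measured 80.2 and 84.8 CPM in NCI-H1581 against 40.4 and 53.6 CPM in NCI-H1581R, a log2 fold change of -0.80 ± 0.20 (SE, adjusted p = 0.0504, edgeR). In NCI-H1703 it measured 113 and 121 CPM against 69.6 and 82.9 CPM in NCI-H1703R, a change of -0.59 ± 0.11 (SE, adjusted p = 0.0266, edgeR). The ranges did not overlap in either line, and the difference between the 2 changes was 0.19 ± 0.23 (SE, adjusted p = 0.702, edgeR interaction term).

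TEAD2 (ENSG00000074219, chromosome 19, 49340595 to 49362457, minus strand) fell in NCI-H1703R. Its levels were 63.1 and 62.3 CPM in NCI-H1703 and 25.2 and 26.3 CPM in NCI-H1703R, close replicates with a log2 fold change of -1.25 ± 0.10 (SE, adjusted p = 0.00115, edgeR). In NCI-H1581 it measured 59.4 and 54.2 CPM, within the range of 65.1 and 44.02 CPM in NCI-H1581R. The 2 lines differed in this change by -1.23 ± 0.26 (SE, adjusted p = 0.0197, edgeR interaction term).

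TEAD4 (ENSG00000197905, chromosome 12, 2959330 to 3040676, plus strand) was the most abundant TEAD RNA per kb in every library. This order rests on merged exon lengths of 2275 bases for TEAD4, 2980 for TEAD2 and 10700 for TEAD1. By CPM alone, TEAD1 (80.2 and 84.8) and TEAD2 (59.4 and 54.2) were both above TEAD4 in NCI-H1581. TEAD2 was also above it in replicate 1 of NCI-H1581R (65.1 CPM). TEAD4 measured 56.8 and 50.4 CPM in NCI-H1581, 55.3 and 55.3 CPM in NCI-H1581R, 253 and 274 CPM in NCI-H1703 and 186 and 221 CPM in NCI-H1703R. The lower level in NCI-H1703R had a log2 fold change of -0.34 ± 0.12 (SE) and did not pass with edgeR (adjusted p = 0.142). It passed with the replicate block (adjusted p = 0.000104) and with DESeq2 (adjusted p = 0.0332), where 35.5% and 16.7% of all genes passed. Of the summed TEAD1 to TEAD4 level per kb, TEAD4 made up 42.2% and 41.1% in NCI-H1581, 44.9% and 48.6% in NCI-H1581R, 70.5% and 72.0% in NCI-H1703 and 73.8% and 76.2% in NCI-H1703R. TEAD2 fell from 13.4% and 12.5% of that sum in NCI-H1703 to 7.62% and 6.91% in NCI-H1703R. The sum itself was 59.2 and 53.8 CPM per kb in NCI-H1581, 54.2 and 50.0 in NCI-H1581R, 158 and 167 in NCI-H1703 and 111 and 128 in NCI-H1703R. Reads from paralogous TEAD exons could have been split between these genes.

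CCN1 (CYR61, ENSG00000142871, chromosome 1, 85580761 to 85584589, plus strand), a secreted matrix protein, had the largest change of the 10 genes in NCI-H1581 and moved in opposite directions in the 2 lines. It had 57 and 65 counts in NCI-H1581 and 582 and 668 in NCI-H1581R, or 1.69 and 1.62 against 15.5 and 17.0 CPM. The log2 fold change was 3.30 ± 0.27 (SE, adjusted p = 0.000413, edgeR), which is 9.84-fold. In NCI-H1703 it measured 202 and 230 CPM, and in NCI-H1703R 60.3 and 98.4 CPM, a log2 fold change of -1.42 ± 0.22 (SE, adjusted p = 0.0142, edgeR). The difference between the 2 changes was -4.74 ± 0.34 (SE, adjusted p = 0.000127, edgeR interaction term). The ranges of all 4 variants were apart, in the order NCI-H1703, NCI-H1703R, NCI-H1581R and NCI-H1581.

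CCN2 (CTGF, ENSG00000118523, chromosome 6, 131948176 to 131951372, minus strand), a second secreted CCN protein and the gene with 3 TEAD motifs above, passed in neither line. It had 115 and 140 counts in NCI-H1581 and 56 and 65 in NCI-H1581R, or 3.41 and 3.50 against 1.49 and 1.65 CPM. This difference of -1.13 ± 0.39 on the log2 scale (SE) did not pass (adjusted p = 0.134, edgeR), while it passed with a stricter filter of 10 counts per library (adjusted p = 0.0806). In NCI-H1703 it measured 209 and 267 CPM, and in NCI-H1703R 197 and 393 CPM, so that the replicates of NCI-H1703R spanned those of NCI-H1703. The log2 fold change of 0.34 ± 0.31 (SE, adjusted p = 0.598, edgeR) rested on replicate 2 of NCI-H1703R and was -0.24 without it. With the replicate block the change was 0.27 (adjusted p = 0.0128), where 35.5% of all genes passed. Replicate 1 was nevertheless lower in NCI-H1703R and only replicate 2 was higher. The difference between the 2 changes was 1.45 ± 0.47 (SE, adjusted p = 0.0940, edgeR interaction term).

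Set against each other per kb, CCN2 was 3.19 and 3.41 times CCN1 in the NCI-H1581 replicates and 0.152 and 0.154 times in NCI-H1581R. In NCI-H1703 the ratio was 1.63 and 1.83, and in NCI-H1703R 5.18 and 6.32. The ratio of the pair therefore lay below 1 in NCI-H1581R and above 1 in the other 3 variants, with replicates close together in each. Of the other CCN genes listed, CCN3 rose in NCI-H1581R, where it had 66 and 51 counts, against 7 and 6 before selection (log2 fold change 3.09 ± 0.66, SE, adjusted p = 0.0288, edgeR). CCN5 had 46 and 32 counts in NCI-H1703R and 1 and 1 in NCI-H1703, and it was tested only through NCI-H1703R, so no test is given. CCN3 and CCN5 were named after their values were seen.

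ANKRD1 (ENSG00000148677, chromosome 10, 90912096 to 90921087, minus strand), a cardiac ankyrin repeat protein widely used as a readout of YAP, was close to absent. It had 1 and 0 counts in NCI-H1581, 0 and 1 in NCI-H1581R, 15 and 11 in NCI-H1703 and 1 and 3 in NCI-H1703R. Both NCI-H1703 libraries were the highest, and without them the gene would not have been tested, so these counts are given as a description. No change could be detected in NCI-H1581 at this depth.

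AMOTL2 (ENSG00000114019, chromosome 3, 134355347 to 134375479, minus strand), an angiomotin-family protein that binds YAP and holds it outside the nucleus, rose in NCI-H1581R. It measured 22.1 and 26.1 CPM in NCI-H1581 and 51.3 and 71.2 CPM in NCI-H1581R, a log2 fold change of 1.35 ± 0.22 (SE, adjusted p = 0.0105, edgeR). In NCI-H1703 it measured 383 and 396 CPM, just above the 292 and 375 CPM of NCI-H1703R. The difference of -0.19 ± 0.14 (SE) did not pass (adjusted p = 0.477, edgeR) other than with the replicate block (adjusted p = 0.0244), where 35.5% of all genes passed. The lines differed in the change by -1.56 ± 0.27 (SE, adjusted p = 0.00924, edgeR interaction term).

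LATS2 (ENSG00000150457, chromosome 13, 20973036 to 21061586, minus strand), the kinase that both restrains YAP and is induced by it, fell in NCI-H1703R. It measured 106 and 106 CPM in NCI-H1703 and 62.5 and 76.5 CPM in NCI-H1703R, a log2 fold change of -0.58 ± 0.11 (SE, adjusted p = 0.0287, edgeR). In NCI-H1581 the 30.3 and 32.0 CPM lay inside the 25.5 and 36.0 CPM of NCI-H1581R (log2 fold change -0.01 ± 0.22, SE). The plot of levels by library shows the 10 genes side by side.

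**Figure D2:**
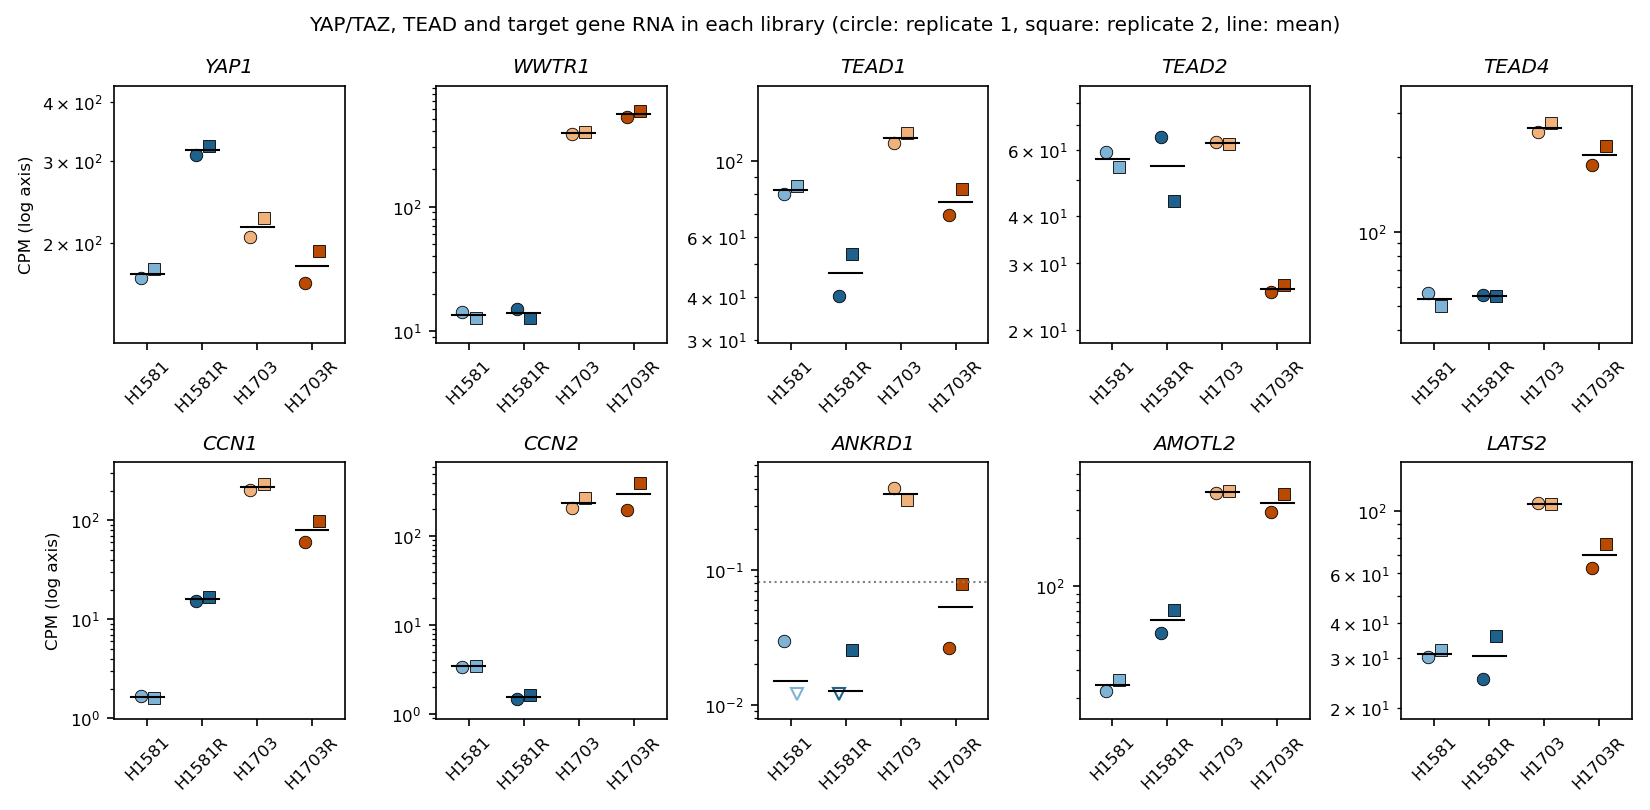
RNA level (CPM, log axis, a separate range in each panel) of the 10 genes in the 2 replicates of each variant, with a line at the mean. Open triangles in the ANKRD1 panel are libraries with 0 counts, drawn at the bottom edge, and its dotted line is the level of 3 counts. CCN1 rises from NCI-H1581 to NCI-H1581R and falls from NCI-H1703 to NCI-H1703R, with the ranges of all 4 variants apart.

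Counted together, 4 of the 10 genes passed in NCI-H1581R against NCI-H1581, with YAP1, CCN1 and AMOTL2 higher and TEAD1 lower, where 14.2% of all genes tested passed, 7.16% higher and 7.09% lower. The 10 genes and the lists below were chosen with earlier results of these data known. Their counts beside the shares of all genes are therefore a description and not a test of the sets. Leaving ANKRD1 aside, ranges were apart for 5 of 9, against 50.6% of all genes. The median log2 fold change was 0.06 over the 9 genes with more than 3 counts in any library of the line, against 0.04 over all genes, and the median size was 0.80 against 0.42. The calls of YAP1 and TEAD1 were lost without either replicate of NCI-H1581, while those of CCN1 and AMOTL2 held in each leave-one-out fit.

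In NCI-H1703R against NCI-H1703, 5 of the 10 passed, with WWTR1 higher and TEAD1, TEAD2, CCN1 and LATS2 lower, where 14.4% of all genes passed, 6.94% higher and 7.48% lower (16.7% with DESeq2). Leaving ANKRD1 aside, ranges were apart for 8 of 9, against 51.3% of all genes. With the replicate block all 9 passed, 2 higher (WWTR1 and CCN2) and 7 lower, where 35.5% of all genes did. The CCN2 pairs went opposite ways, with replicate 1 lower and replicate 2 higher in NCI-H1703R, so its call shows no consistent rise. Without replicate 1 of NCI-H1703 2 of the 10 passed (TEAD2 and CCN1), and without replicate 2 only TEAD2.

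**Figure D3:**
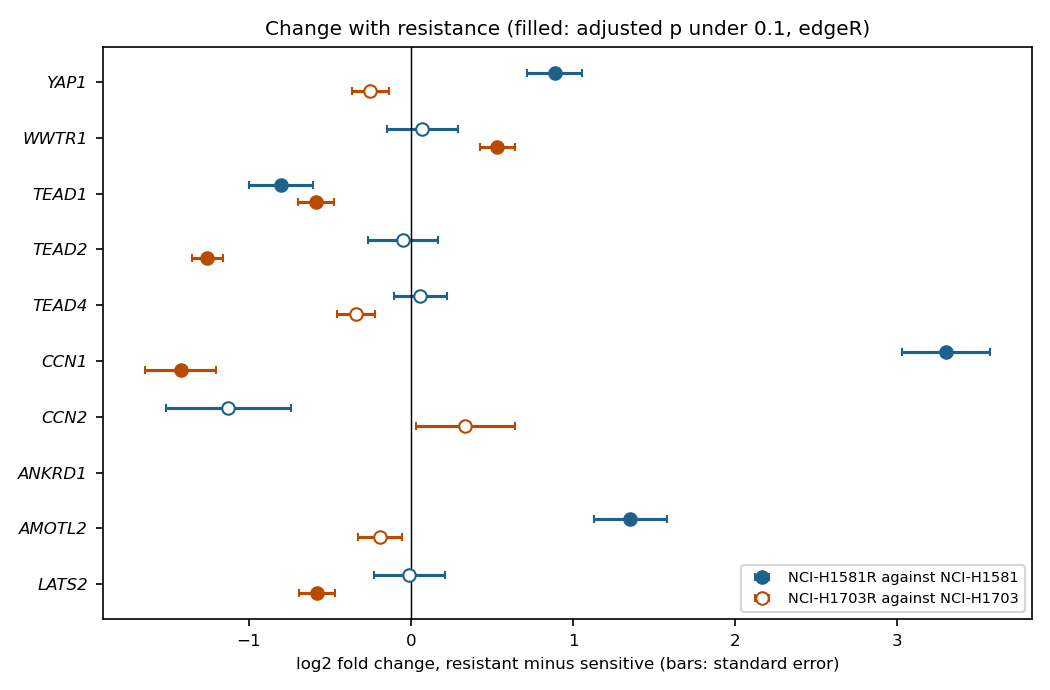
Log2 fold change of each gene with resistance (resistant minus sensitive, bars are standard errors, n = 2 against 2), filled where the adjusted p was under 0.1. TEAD1 lies left of 0 in both lines, and CCN1 lies at 3.30 in NCI-H1581R and at -1.42 in NCI-H1703R. ANKRD1 is left out because a variant was at or under 3 counts in each line.

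The sensitive lines differed in most of these genes before any selection. In NCI-H1703 against NCI-H1581, 8 of the 9 genes other than ANKRD1 passed, each higher in NCI-H1703, where 59.9% of all genes passed, 30.8% higher and 29.2% lower. CCN1 was 131-fold higher (log2 fold change 7.03 ± 0.15, SE, adjusted p = 9.07e-08, edgeR), CCN2 68.9-fold, WWTR1 29.2-fold and AMOTL2 16.1-fold. TEAD4 was 4.92-fold and LATS2 3.40-fold higher. YAP1 (log2 fold change 0.33 ± 0.10, SE) and TEAD1 (0.50 ± 0.10) passed with small differences, YAP1 not without replicate 2 of NCI-H1703 (adjusted p = 0.160), and with offsets for GC content and length their values were -0.13 and -0.04 and did not pass. TEAD2 did not pass (0.14 ± 0.10), but did with those offsets (0.53).

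Between the resistant variants the gap in the targets was altered. In NCI-H1703R against NCI-H1581R, 9 of the 10 passed, where 49.1% of all genes did, 24.3% higher and 24.8% lower. WWTR1, TEAD1, TEAD4, CCN1, CCN2, AMOTL2 and LATS2 were higher in NCI-H1703R, and YAP1 (log2 fold change -0.79 ± 0.17, SE) and TEAD2 (-1.05 ± 0.23) were lower. The CCN1 gap was 5.01-fold and the CCN2 gap 192-fold, a log2 fold change of 7.58 that was 6.96 without replicate 2 of NCI-H1703R. YAP1 lost its call without replicate 1 of NCI-H1703R (adjusted p = 0.237), and TEAD1 lost its call without replicate 2 (adjusted p = 0.277). Tested directly, the change with resistance differed between the lines for 5 of the 10 genes, lower in NCI-H1703 for YAP1, TEAD2, CCN1 and AMOTL2 and higher for CCN2, where 16.1% of all genes differed, 7.28% higher and 8.82% lower. The comparisons of sensitive and of resistant variants use the same libraries as the comparisons within each line, so they are not further evidence of the changes above.

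The upstream part of the pathway was followed in 17 Hippo kinases and regulators. In NCI-H1581R 3 rose and 1 fell (14.2% of all genes passed), with a median log2 fold change of 0.23 against 0.04 over all genes. Fewer passed when a replicate of NCI-H1581 was left out, and more when one of NCI-H1581R was. The count over all genes moved too in such fits. DCHS1, a large cadherin, went from 23.3 and 20.9 CPM to 56.1 and 61.2 CPM (log2 fold change 1.42 ± 0.17, SE, adjusted p = 0.00266, edgeR). WWC2, a LATS-binding scaffold, rose by 1.12 ± 0.19 (SE, adjusted p = 0.0113, edgeR), and FRMD6, named after its value was seen, by 0.88 ± 0.23 (SE, adjusted p = 0.0626, edgeR). The cadherin FAT1 fell from 217 and 194 CPM to 40.3 and 36.6 CPM (log2 fold change -2.41 ± 0.17, SE, adjusted p = 0.000241, edgeR). The core kinase genes STK3, STK4 and LATS1 did not pass in either line, with log2 fold changes up to 0.29 in size (STK4 in NCI-H1703R). There STK4 passed with the replicate block (adjusted p = 0.0017), where 35.5% of all genes passed.

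In NCI-H1703R 1 of the 17 rose and 6 fell (14.4% of all genes passed), with a median of -0.12 against 0, and 4 rose and 7 fell with the replicate block, where 35.5% of all genes passed. Only 4 calls were left without replicate 1 of NCI-H1703 and 1 without replicate 2. NF2 (merlin), which recruits LATS kinases to the membrane, fell from 177 and 189 CPM to 78.9 and 101 CPM (log2 fold change -0.997 ± 0.13, SE, adjusted p = 0.00769, edgeR). WWC1 (KIBRA), its scaffold partner, fell by 1.43 ± 0.11 on the log2 scale (SE, adjusted p = 0.00114, edgeR). WWC2 fell by 0.82 ± 0.11 and DCHS1 by 3.46 ± 0.60, the latter from 54 and 33 counts to 4 and 4. MOB1A, the co-activator of LATS kinases, rose by 0.32 ± 0.09 (SE, adjusted p = 0.0894, edgeR). WWC2 and DCHS1 thus passed in both lines, upwards in NCI-H1581R and downwards in NCI-H1703R.

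Of 6 other partners of YAP, TAZ or TEAD, 2 rose in NCI-H1581R (median log2 fold change 0.74 against 0.04 over all genes, 7.16% of which were higher) and 2 fell in NCI-H1703R (median 0.11 against 0, with 7.48% of all genes lower). The NCI-H1581R calls were fewer without replicate 2 of NCI-H1581 and more without either replicate of NCI-H1581R. Calls over all genes moved too in such fits. The NCI-H1703R calls numbered 0 without either replicate of NCI-H1703 and 1 without either of NCI-H1703R. AMOT, the founding angiomotin, went from 1.69 and 1.10 CPM to 4.49 and 3.66 CPM in NCI-H1581R (log2 fold change 1.56 ± 0.42, SE, adjusted p = 0.0638, edgeR). It went from 2.76 and 2.84 CPM to 0.687 and 1.16 CPM in NCI-H1703R (-1.57 ± 0.39, SE, adjusted p = 0.0612, edgeR). AMOTL1, a further angiomotin, fell by 0.57 ± 0.13 in NCI-H1703R (SE, adjusted p = 0.0469, edgeR). VGLL3, a TEAD-binding co-factor named after its value was seen, had 5 and 10 counts in NCI-H1581 and 146 and 177 in NCI-H1581R (log2 fold change 4.37 ± 0.52, SE, adjusted p = 0.00233, edgeR). TEAD3, the remaining TEAD factor, did not pass in either line (-0.28 ± 0.24 and -0.05 ± 0.10, SE). AMOT lost its call at a threshold of 0.05 in both lines.

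Of 17 further target genes of YAP and TAZ, 16 were tested. In NCI-H1581R 2 rose and 2 fell (14.2% of all genes passed), with a median log2 fold change of 0.03 against 0.04 over all genes. With the replicate block 4 rose and 2 fell, where 3334 of all 18203 genes passed. More passed without either replicate of NCI-H1581R, and the count over all genes moved too in such fits. MYOF (myoferlin) rose from 2.11 and 1.85 CPM to 6.40 and 8.13 CPM, and GADD45A, a stress-response gene, rose by 2.19 ± 0.51 (SE, adjusted p = 0.0390, edgeR). FJX1 fell from 34.5 and 24.4 CPM to 5.87 and 4.12 CPM (log2 fold change -2.55 ± 0.28, SE, adjusted p = 0.00158, edgeR). The ligand gene TGFB2 fell from 970 and 1320 counts to 0 and 1, a ratio whose 95% exact counting interval, which covers counting error only, starts at 429.

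In NCI-H1703R 2 of the 16 rose and 8 fell (6.94% of all genes were higher and 7.48% lower), with a median of -0.43 against 0. IGFBP3, a secreted binding protein of insulin-like growth factors, fell from 492 and 682 CPM to 40.8 and 63.6 CPM (log2 fold change -3.47 ± 0.26, SE, adjusted p = 0.00114, edgeR). NT5E (CD73), an ectoenzyme that makes adenosine, fell from 62.9 and 61.1 CPM to 7.11 and 6.78 CPM (-3.13 ± 0.11, SE, adjusted p = 0.000134, edgeR). GADD45A fell there by 0.57 ± 0.14 (SE, adjusted p = 0.0571, edgeR), opposite to its direction in NCI-H1581R. CRIM1 rose by 0.49 ± 0.14 and MYOF by 0.37 ± 0.11, so MYOF passed upwards in both lines. At a threshold of 0.05 only 4 of these 10 calls were left, while 3 passed without either replicate of NCI-H1703 and 5 without replicate 2 of NCI-H1703R.

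Serum response factor and its MRTF co-activators share several targets with YAP, and 12 of 13 listed genes of that group were tested. Their median log2 fold change was -0.31 in NCI-H1581R and -0.06 in NCI-H1703R, against 0.04 and 0 over all genes, of which 14.2% and 14.4% passed. In NCI-H1581R MRTFA rose (log2 fold change 0.62 ± 0.19, SE, adjusted p = 0.0934, edgeR) and ACTA2 and MYL9, which encode smooth muscle actin and a myosin light chain, fell. ACTA2 fell from 73.5 and 62.8 CPM to 14.4 and 17.4 CPM in NCI-H1581R (-2.09 ± 0.19, SE, adjusted p = 0.000725, edgeR). In NCI-H1703R it rose from 2.46 and 2.42 CPM to 5.84 and 6.20 CPM (1.33 ± 0.23, SE, adjusted p = 0.0217, edgeR). In NCI-H1703R ACTA2 was the only gene of the group to rise and 3 fell, among them TPM1 (-1.40 ± 0.13, SE, adjusted p = 0.00205, edgeR) and FHL2 (-0.72 ± 0.17, SE, adjusted p = 0.0494, edgeR). With the replicate block 3 rose and 5 fell in NCI-H1703R, where 35.5% of all genes passed. The 3 calls in NCI-H1581R became fewer without either replicate of NCI-H1581 and more without either replicate of NCI-H1581R. Calls over all genes moved too in such fits. The 4 calls in NCI-H1703R became 1 without either replicate of NCI-H1703. The plot of the gene lists sets these groups beside the 10 genes.

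**Figure D4:**
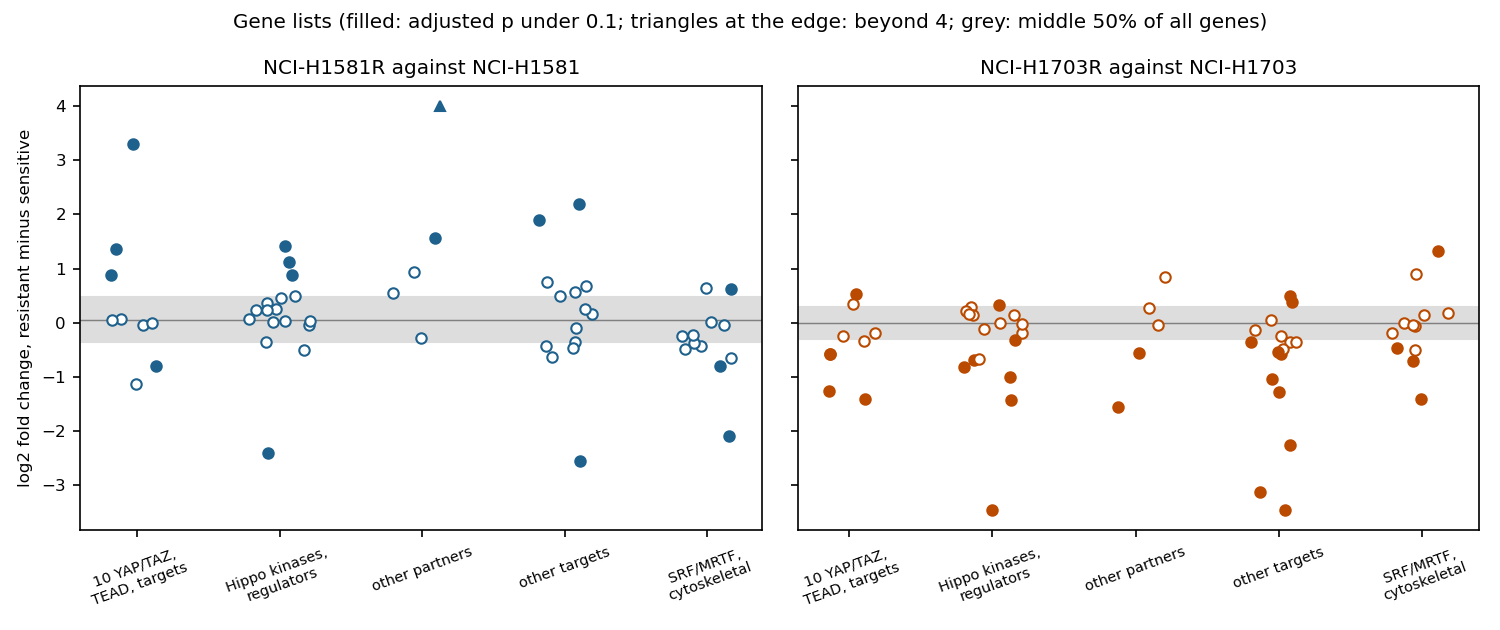
Log2 fold change with resistance for the 10 genes and 4 lists of pathway genes (points spread sideways for visibility, filled where the adjusted p was under 0.1), with the middle 50% of all tested genes in grey and their median as a line. The triangle at the upper edge is VGLL3 at 4.37, and genes with a variant at or under 3 counts are left out. In NCI-H1703R the filled points of 6 Hippo regulators and 8 other targets lie below 0, where 7.48% of all genes were lower, and in all only 1 and 3 genes of these lists passed without replicate 2 of NCI-H1703.

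The genes with the most similar pattern were sought by the Euclidean distance between centred log2 CPM values over the 8 libraries, among 11174 genes with a mean of at least 5 CPM. For CCN1 the nearest were USP53 (distance 1.35), SAMD11 (1.40) and FBN2 (1.49). SAMD11 averaged 0.985 CPM in NCI-H1581, 14.0 in NCI-H1581R, 127 in NCI-H1703 and 90.5 in NCI-H1703R. For CCN2 they were C15orf48 (0.883), JHY (0.938) and the unnamed gene ENSG00000239836 (0.961). C15orf48 averaged 1.54, 0.691, 136 and 171 CPM in the same order. For YAP1 they were EML1 (0.266), TMEM65 (0.319) and ZBTB10 (0.320), and for WWTR1 SH3D19 (0.582), LAMB1 (0.768) and KYNU (0.788). None of the 10 genes was among the 3 nearest of CCN1, CCN2, YAP1 or WWTR1.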

How the data were processed

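The authors trimmed the paired reads with cutadapt, estimated transcript abundance with Salmon on GRCh38 and added it up per gene; versions and strandedness are not given in the sources used here. The authors deposited these estimated counts as whole numbers, not normalised. Overlap with genes on the other strand (up to 11.9% of exon length for CCN2, with YAP1, WWTR1 and TEAD2 also affected) therefore cannot be resolved.

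Samples were grouped by the labels' line and variant. edgeR 4.0.16 in R 4.3.3 (TMM, default quasi-likelihood test, two-sided) was fitted across all 18203 genes on the 4 libraries of each comparison, and on all 8 for the interaction term. P-values were adjusted by the Benjamini-Hochberg method, and a gene was called at an adjusted p under 0.1. They measure the spread between 2 cultures of a variant. Symbols and exon lengths came from GENCODE for GRCh38. The models were tested on simulated data.

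The methods state that the procedure was repeated for the second replicate, so equal numbers were taken as a shared run. Same-numbered deviations had positive correlations within lines (r = 0.156 and 0.237 across 9828 genes). Between lines r ran from -0.317 to 0.033, at its lowest larger in size than within lines. These values do not settle whether equal numbers shared a run. The pairing was used as a block within lines, and as an alternative also in the comparisons between lines. Within a line the block left fewer than the 2 residual degrees of freedom of the main fit. No replicate pair agreed within sampling noise.

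The 10 genes and the lists were chosen with earlier results of these data known. From each list, the text names the 2 called genes that rose and the 2 that fell most in each line with a mean of at least 5 CPM, genes called in both lines, and the 3 nearest genes of CCN1, CCN2, YAP1 and WWTR1. Alternatives were DESeq2 1.42.0, RLE scaling, other filters on low counts, a threshold of 0.05, the block, 1 fit of all 8 libraries and leaving out each replicate. The newer quasi-dispersions of edgeR and offsets for GC content and length (17177 genes) were added after seeing the data. Of the targets listed, 1 gene was not analysed here.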

Additional observations from a re-analysis of the deposited data

Results flagged for a closer look

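A set of 5 genes changed differently with resistance in the 2 lines by the edgeR interaction term, where 16.1% of all 18203 genes passed. Each value is the log2 change in NCI-H1703 minus that in NCI-H1581. CCN1 had the largest difference, -4.74 (adjusted p = 0.000127), with a rise in NCI-H1581R and a fall in NCI-H1703R that both passed on their own. AMOTL2 differed by -1.56 (adjusted p = 0.00924) and YAP1 by -1.16 (adjusted p = 0.0054), and both rose in NCI-H1581R and did not pass in NCI-H1703R. TEAD2 differed by -1.23 (adjusted p = 0.0197) and fell in NCI-H1703R. CCN2 differed in the other direction, by 1.45 (adjusted p = 0.0940), although its change passed in neither line. The CCN2 difference was 0.86 without replicate 2 of NCI-H1703R (adjusted p = 0.124), and it lost its call in 8 of the 9 settings that left out a replicate or took the newer quasi-dispersions.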

How the results depend on the processing

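Over the alternatives, 612 of 682 values kept their direction and their side of the threshold, 28 lost a call, 27 gained one and 15 turned direction. Every call of the main fits rests on 2 replicates per variant.

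The replicate block raised the calls in NCI-H1703R against NCI-H1703 from 5 to 10 of the 10 genes and from 2626 to 6468 of all genes, and together with the GC and length offsets to 9 and 6495. These counts of the 10 genes include ANKRD1, which passed the filter only through NCI-H1703. In that line a threshold of 0.05 left 1688 calls over all genes and 1 fit of all 8 libraries 1440. In NCI-H1581R against NCI-H1581 the block with the offsets gave 4083 calls over all genes in place of 2593. For the difference between the lines it gave 8 of the 10 genes in place of 5, and 4258 of all genes in place of 2931. The block changed no other count of calls by more than 1.5 times, apart from the lists given above. The newer quasi-dispersions gave 2743 and 2683 calls in the 2 lines.

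Leaving out a replicate gave 2 to 4 of the 10 genes and 1608 to 5069 of all genes in NCI-H1581R, 1 to 7 and 559 to 2281 in NCI-H1703R, 7 to 9 and 9332 to 10455 between the sensitive lines, 8 to 9 and 6236 to 9899 between the resistant variants, and 4 to 6 and 1664 to 4194 for the difference between the lines. In these fits the lone library of a variant is taken to vary like the others.

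The values that turned direction had not passed in NCI-H1581R against NCI-H1581. WWTR1 was -0.141 with the offsets and -0.147 with offsets and block, and -0.054 to 0.171 with a replicate left out. TEAD2 was 0.090 and 0.070 with the offsets and -0.348 to 0.188 with a replicate left out, TEAD4 -0.031 to 0.127 and LATS2 -0.301 to 0.225. In NCI-H1703R against NCI-H1703, CCN2 ranged from -0.242 without NCI-H1703R replicate 2 to 0.762 without replicate 1. Between the sensitive lines, the offsets alone or with the block gave YAP1 -0.131 and -0.133 and TEAD1 -0.044 and -0.045, which had passed without them. The cause was not tested.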
